A study of Mus musculus with 8 samples.

Results

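The transcription regulators of naïve and stem-like T cells encoded by *Myb*, *Tcf7*, *Lef1*, *Bach2*, *Id2* and *Id3* were examined in CD4+ T cells cultured toward the regulatory fate. They were found in the table by gene symbol, and they are 6 of the 11911 genes listed in the count table. All 6 were among the 11317 genes tested after the filter on low counts. The question was whether their transcripts differed between cells of *Foxp3YFP-Cre* mice, the control, and cells of *Tdrd3fl/fl/Foxp3YFP-Cre* mice, in which the gene for the methylarginine reader TDRD3 carries loxP-flanked alleles.

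The 8 libraries came from naïve CD4+ T cells of the spleen, 4 of each genotype, on the C57BL/6J background. Both genotypes received the same culture of 36 hours with antibodies to CD3 and CD28, TGF-β, and antibodies that block IL-4 and IFN-γ, a mixture that induces Foxp3 in naïve cells. The ages and sexes of the mice are not given in the sources used here. Both genotypes carry *Foxp3YFP-Cre*, so Cre and the yellow fluorescent protein are common to all libraries. Cre is made from the *Foxp3* locus, which limits the model: the floxed alleles can be cut only in cells that transcribe *Foxp3*, naïve cells had not yet done so when the culture began, and no step that sorted cells by fluorescence before RNA extraction is described. The libraries are therefore mixtures of cells, in which fewer cells of a type and less RNA per cell cannot be told apart.

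The 6 genes act at different points of the T cell program. TCF-1, encoded by *Tcf7*, and LEF1 are DNA-binding proteins of the TCF/LEF family, which pair with β-catenin or with Groucho corepressors and are abundant in naïve and memory T cells. MYB is a DNA-binding factor of progenitors that is retained in stem-like T cells, and BACH2 is a repressor that restrains effector genes and favors regulatory T cells. ID2 and ID3 lack a DNA-binding region and hold E proteins away from DNA, with ID3 characteristic of naïve and memory cells and ID2 of effector cells.

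The DNA around the start sites of the members was read because TDRD3 is studied here together with FOXO1, a factor of naïve T cells. The 300 bases from 250 before to 50 after each gene's start site in GENCODE M39 were searched on both strands for 3 motifs, the FOXO motif GTAAACA, the TCF/LEF motif ATCAAAG and the E-box CACCTG. Among the 6 members, *Myb* and *Tcf7* held any of them, and each held 1. The window of *Myb* lies in the first exon, ahead of the coding start, at chr10:21036834-21036863 on the minus strand of GRCm39, and that of *Tcf7* lies just after the start site at chr11:52174580-52174609 on the minus strand. The start site of *Tcf7* in GENCODE M39 lies upstream of where the count table has the gene begin, so this window falls outside the coordinates that the table gives for the gene. Capitals mark the reverse complement of the FOXO motif in *Myb*, whose first base is base 34 of the transcript, and of the E-box in *Tcf7*, whose first base is base 22.
Myb: gtttgatggcatcTGTTTACagagttacac
Tcf7: gatcaaaagggCAGGTGtttgtgtgtgtgt
Of 11910 such windows, 2.72% held the FOXO motif, 2.59% the TCF/LEF motif and 18.4% the E-box. These matches describe letters in the DNA and no binding was measured.

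The libraries held between 13258239 and 16001676 counts. *Tdrd3* was at 18.8, 15.1, 9.95 and 17.7 CPM (counts scaled to library size and normalized by the trimmed mean of M values, TMM) in control libraries 1 to 4, labelled WT. It was at 13.7, 10.7, 12.9 and 11.1 CPM in the libraries labelled KO. These are called deleted here, a name that the counts do not establish. The log2 fold change of *Tdrd3* was -0.35, with an adjusted p of 0.496 in the edgeR test described below. Control library 3 was below all 4 of the deleted libraries, so this whole-gene count does not separate the genotypes and does not settle whether its label is right. Across all genes it was nearest to deleted library 2 by rank correlation, as was control 4. It is called control 3 by its label throughout, and leaving it out moved *Id2* from a log2 fold change of 0.11 to 0.21. Such a move was not particular to control 3, since *Id2* was at 0.0077, 0.027 and 0.22 without control 1, 2 or 4. The CD4 T cell markers were all present, summing to 1440 to 1517 CPM in the controls and 1420 to 1470 in the deleted libraries. B cell markers summed to 2.46 to 4.35 and 2.47 to 3.16 CPM, and CD8 T and NK cell markers to 8.07 to 24.2 and 8.49 to 10.1 CPM, where the highest sum belonged to control 3, with *Cd8a* at 11.3 CPM. Of the 6 myeloid markers 1 was listed, *Lyz2*, at 0.65 and 1.22 CPM in deleted libraries 1 and 4 and at 0 in the other libraries.

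Among the 6 members none passed an adjusted p of 0.05 in the edgeR test between genotypes, in which p-values were corrected by the Benjamini-Hochberg method across every tested gene. Over all genes that test called 0.203% as lower and 0.0619% as higher in the deleted libraries. At an unadjusted P below 0.05 with a fold change of at least 1.2, 1 member was lower (*Myb*) and none was higher. That cutoff took 1.70% of all genes as lower and 1.78% as higher. At that P with no fold cutoff the members gave the same count, and 1052 of the 11317 tested genes passed in either direction. In none of the 6 did all deleted libraries lie below or above all controls, which occurred downward in 2.63% and upward in 2.25% of all genes. As alternatives, DESeq2 called 0 of the 6 and limma's voom with quality weights called 1, *Myb*. The median log2 fold change of the 6 was 0.03, against 0.00132 over all genes tested, with 2 members below 0 and 4 above.

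**Figure D1:**
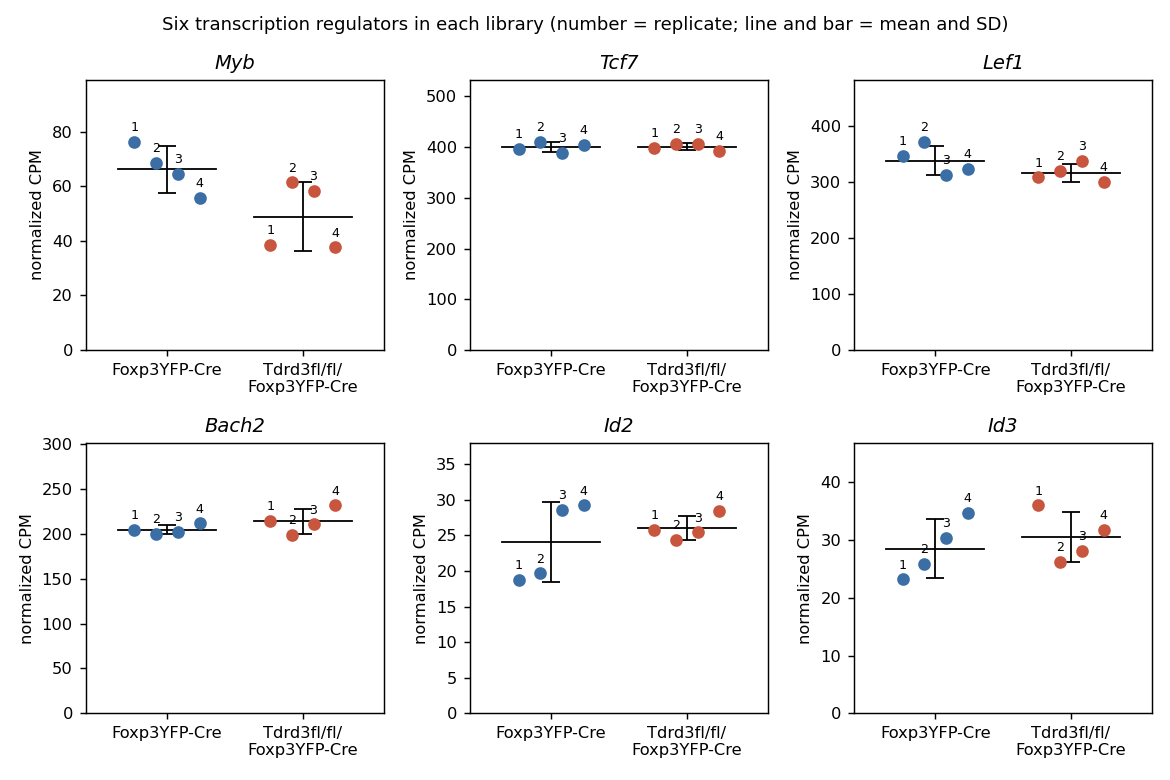
Normalized CPM of the 6 members in each library, with controls and deleted libraries side by side, points for libraries and horizontal lines with whiskers for the mean and SD. Deleted libraries 1 and 4 sit at 38.4 and 37.6 CPM for *Myb*, below every control, and for each of the 6 genes the groups overlap.

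*Myb* (ENSMUSG00000019982, GRCm39 chr10:21000834-21036883, minus strand) gave the largest difference among the members. It was at 76.1, 68.6, 64.3 and 55.6 CPM in controls 1 to 4 and at 38.4, 61.4, 58.2 and 37.6 CPM in deleted libraries 1 to 4. Deleted libraries 1 and 4 were below every control, and deleted libraries 2 and 3 lay within the range of the controls, above control 4. The means were 66.2 ± 8.57 and 48.9 ± 12.7 CPM (SD, n = 4 each), a log2 fold change of -0.44 (SE 0.128, 95% interval -0.70 to -0.17). The unadjusted P was 0.00305 and edgeR's adjusted p was 0.188, which did not pass the threshold. A 2-sided exact permutation test over the 70 arrangements of the 8 libraries gave p = 0.0857, where 0.0286 is the smallest value it can give.

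Relative to the control mean, *Myb* stood at 58.0% in deleted library 1 and 56.8% in deleted library 4, and at 92.7% and 88.0% in deleted libraries 2 and 3. Deleted libraries 1 and 4 also held the *Lyz2* counts and had lower levels of *Klf2*, at 22.2 and 24.4 CPM against 45.3 and 44.3 in deleted libraries 2 and 3. The controls were at 51.2 to 63.0 CPM, so deleted libraries 2 and 3 were also below every control for *Klf2*. *Klf2* encodes a factor that maintains quiescence and trafficking of naïve T cells. The part of these differences in the *Myb* result was not tested. With deleted libraries 1 and 4 left out, an alternative chosen after the data were seen, *Myb* differed by -0.15 on the log2 scale with an adjusted p of 0.9998 in edgeR. With 1 surrogate variable in the model it differed by -0.16 with an adjusted p of 0.854. Over all 33 alternatives its sign stayed negative, and its adjusted p passed 0.05 in 6, including the fit without deleted library 2 (-0.57, adjusted p = 0.0190).

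Neither of the MYB relatives passed a test. *Mybl1* and *Mybl2*, which encode MYB family proteins that act in germ cells and in proliferating cells, had log2 fold changes of 0.05 and 0.00018. *Mybl2* was at 77.2 ± 3.55 CPM in the controls and 77.2 ± 1.74 CPM in the deleted libraries (SD, n = 4 each).

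**Figure D2:**
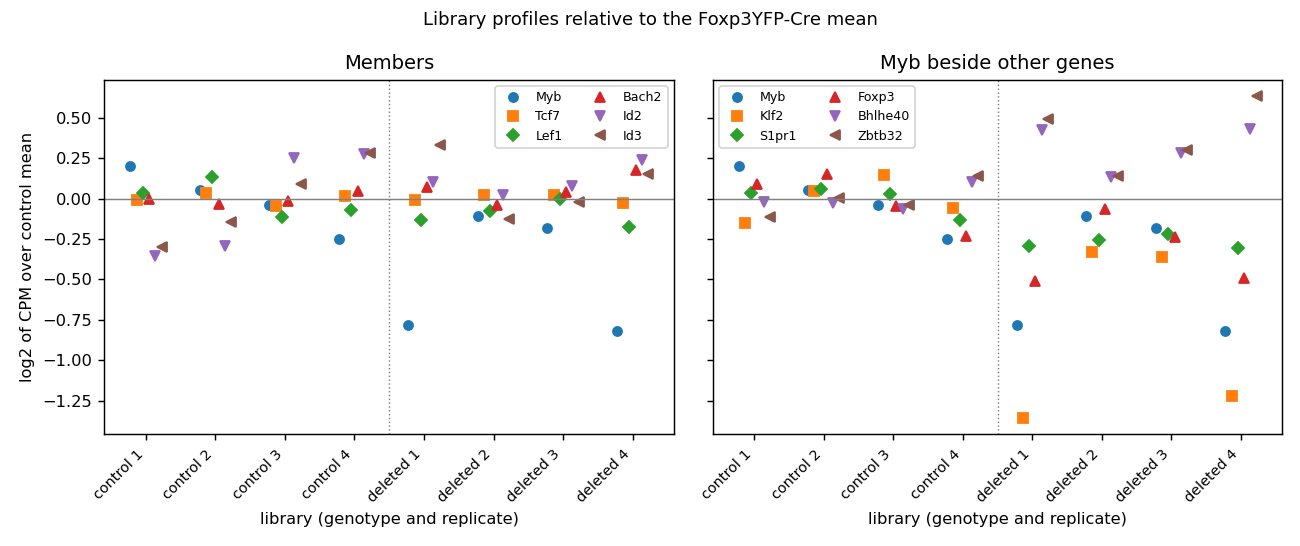
Each library's level as the log2 ratio to the control mean, for the 6 members on the left and for *Myb* beside 5 other genes on the right. *Myb* departs in deleted libraries 1 and 4, at 58.0% and 56.8% of the control mean, where *Klf2* is also lowest.

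*Tcf7* (ENSMUSG00000000782, chr11:52143198-52174158, minus strand) was the most even of the members. It was at 397, 410, 388 and 404 CPM in the controls and at 398, 406, 406 and 392 CPM in the deleted libraries, so that the deleted libraries lay wholly inside the range of the controls. The means were 399.6 ± 9.49 and 400.6 ± 6.90 CPM (SD, n = 4 each), a log2 fold change of 0.0036 (SE 0.0363) with an adjusted p of 0.984 in edgeR. The 95% interval of the change ran from -4.89% to 5.67%, the narrowest among the members.

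*Lef1* (ENSMUSG00000027985, chr3:130904120-131018005, plus strand) was at 346, 371, 313 and 323 CPM in the controls and at 308, 320.5, 337 and 299.9 CPM in the deleted libraries. Deleted libraries 1 and 4 were below every control, and deleted libraries 2 and 3 lay among them. The means were 338 ± 26.1 and 317 ± 16.3 CPM (SD, n = 4 each), a log2 fold change of -0.10 (SE 0.0512, 95% interval -0.20 to 0.01). The unadjusted P was 0.0759 and the adjusted p in edgeR was 0.612, and the exact permutation test gave p = 0.200. Without control 2 the log2 fold change was -0.049. The log2 ratio of *Lef1* to *Tcf7* was -0.24 ± 0.0885 in the controls and -0.34 ± 0.0521 in the deleted libraries (SD, n = 4 each), given as a description.

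Of the 15 tested relatives and partners of the TCF/LEF factors, none passed the adjusted threshold or the cutoff with a fold of 1.2. Their median log2 fold change was -0.03. An unadjusted P below 0.05 was reached by 1052 of all 11317 tested genes and by 1 gene of these 15. That gene, *Ctnnb1*, which encodes β-catenin, was at 404 ± 6.07 CPM in the controls and 380 ± 8.88 CPM in the deleted libraries (SD, n = 4 each). All 4 deleted libraries were below all 4 controls, which occurred downward in 2.63% of all genes. The log2 fold change of *Ctnnb1* was -0.09, with an adjusted p of 0.441 in edgeR. *Axin2*, a target of the β-catenin pathway that also restrains it, was at 16.9 ± 2.00 and 17.5 ± 1.71 CPM (SD, n = 4 each). *Tle3* and *Tle5*, which encode Groucho family proteins, had log2 fold changes of -0.05 and -0.03, with neither passing the test.

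*Bach2* (ENSMUSG00000040270, chr4:32238804-32586108, plus strand) was at 204, 199, 202 and 211 CPM in the controls and at 214, 199, 210.3 and 231 CPM in the deleted libraries. Deleted libraries 1 and 4 were above every control, deleted library 2 was just below the lowest control, and deleted library 3 lay among them. The means were 204 ± 5.12 and 214 ± 13.6 CPM (SD, n = 4 each), a log2 fold change of 0.07 (SE 0.0462, 95% interval -0.03 to 0.16) with an adjusted p of 0.758 in edgeR. The log2 fold change was 0.024 without deleted library 4 and 0.00087 without deleted libraries 1 and 4. BACH2 binds DNA with small MAF proteins, which its relative BACH1 also uses. None of the 4 genes for BACH1 and the small MAF proteins passed at either cutoff, and their median log2 fold change was 0.06, with *Bach1* at 0.03 and *Mafg* at 0.10.

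*Id2* (ENSMUSG00000020644, chr12:25143798-25147139, minus strand) was at 18.8, 19.6, 28.6 and 29.2 CPM in the controls and at 25.8, 24.4, 25.4 and 28.4 CPM in the deleted libraries. The controls fell into a lower and a higher pair, and every deleted library lay between these pairs. The means were 24.0 ± 5.61 and 26.0 ± 1.71 CPM (SD, n = 4 each), a log2 fold change of 0.11 (SE 0.121, 95% interval -0.14 to 0.37) with an adjusted p of 0.865 in edgeR.

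*Id3* (ENSMUSG00000007872, chr4:135870808-135873066, plus strand) was at 23.2, 25.8, 30.4 and 34.8 CPM in the controls and at 36.0, 26.2, 28.2 and 31.7 CPM in the deleted libraries. Deleted library 1 was above every control and the other 3 lay among them. The means were 28.6 ± 5.10 and 30.5 ± 4.31 CPM (SD, n = 4 each), a log2 fold change of 0.09 (SE 0.113, 95% interval -0.14 to 0.33) with an adjusted p of 0.880 in edgeR. The log2 ratio of *Id3* to *Id2* was 0.26 ± 0.129 in the controls and 0.22 ± 0.174 in the deleted libraries (SD, n = 4 each), a difference smaller than either spread.

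None of the genes for the E proteins that ID2 and ID3 bind passed the test. *Tcf3*, which encodes E2A, had a log2 fold change of 0.05, *Tcf12*, which encodes HEB, one of 0.02, and *Tcf4*, which encodes E2-2, one of -0.13. *Id1*, another gene of the ID family, was at 4.54 ± 0.502 CPM in the controls and 6.08 ± 1.57 CPM in the deleted libraries (SD, n = 4 each), a log2 fold change of 0.42 with an adjusted p of 0.517 in edgeR. It was the 1 gene of the 4 tested in this group past the cutoff with a fold of 1.2. That cutoff took 1.78% of all genes as higher and 1.70% as lower. The higher values of *Id1*, 8.06 and 6.59 CPM, were in deleted libraries 1 and 4.

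**Figure D3:**
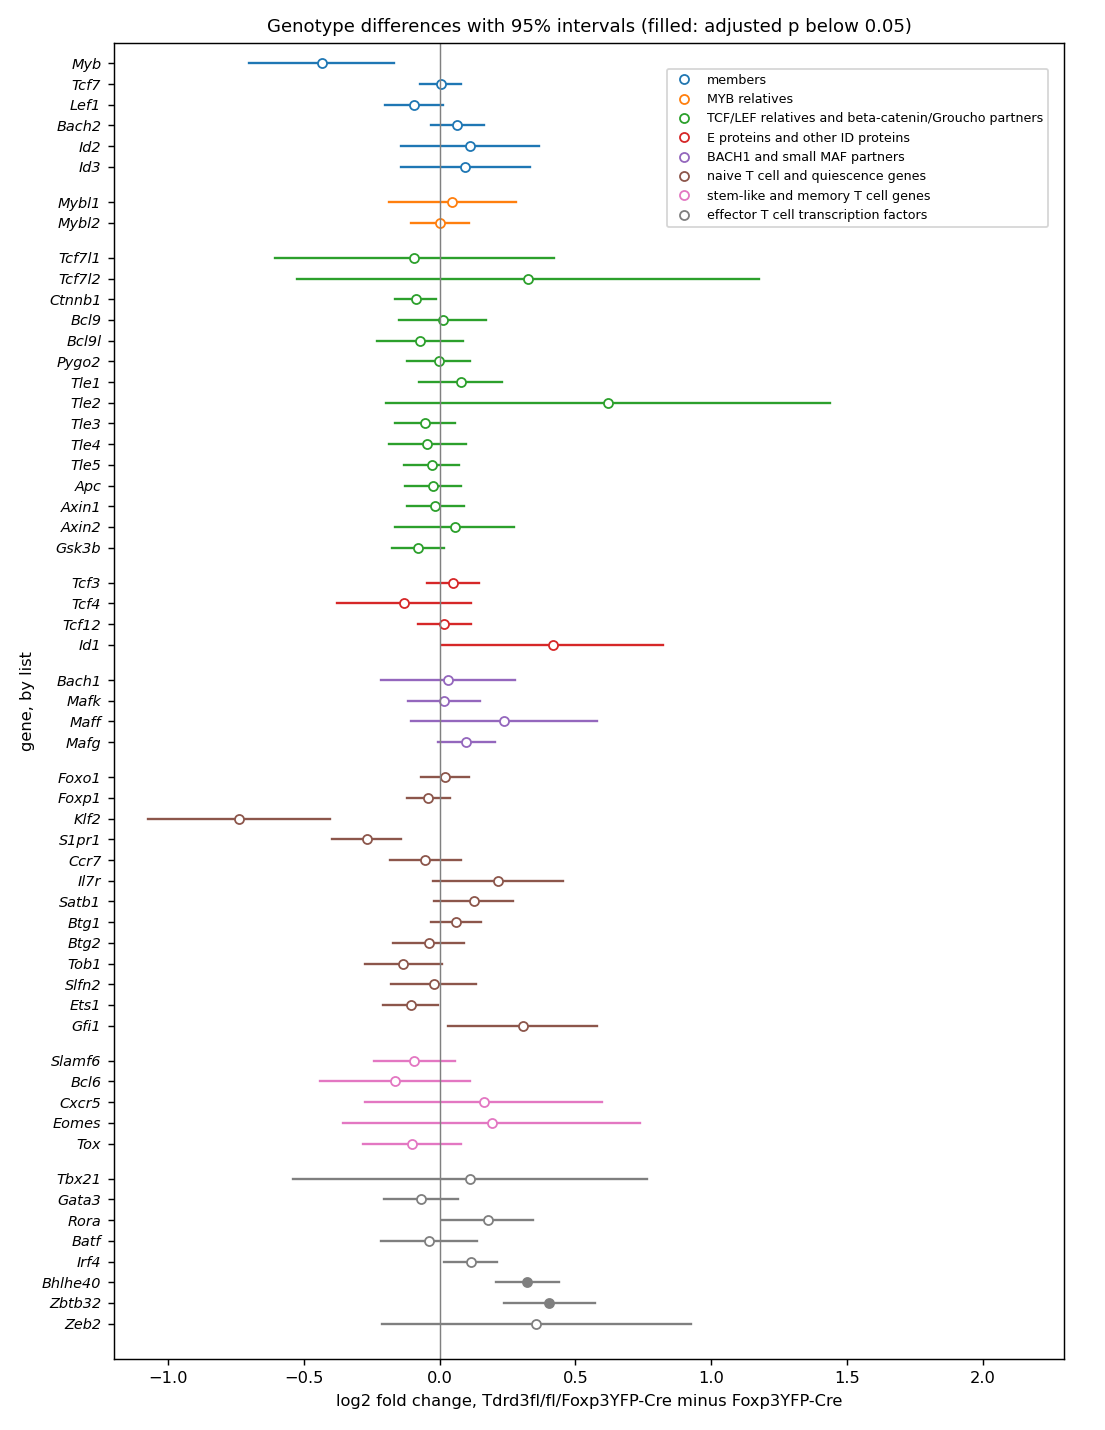
Log2 fold change with its 95% interval for each member and each listed partner, by gene list, with filled points for an adjusted p below 0.05. The interval of *Myb*, -0.70 to -0.17, is the one among the members that leaves out 0, and the filled points are *Bhlhe40* and *Zbtb32*.

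Levels can be compared between genes only per length, so the CPM were divided by the exon length of each gene in GENCODE M39. This length joins the exons of all annotated transcripts, 3841 bases for *Tcf7* and 9337 for *Lef1*. The lengths of the transcripts made in these cells were not measured, so the order below depends on the annotated lengths. In CPM per kilobase of exon the controls ranked *Tcf7* at 104 ± 2.47, *Lef1* at 36.2 ± 2.80, *Bach2* at 20.4 ± 0.511, *Id3* at 15.9 ± 2.85, *Myb* at 7.41 ± 0.959 and *Id2* at 6.90 ± 1.61 (SD, n = 4 each). In the controls the ranges of *Myb* and *Id2* overlapped, and those of the other neighbours in this order did not. In the deleted libraries *Tcf7* was at 104 ± 1.80, *Lef1* at 33.9 ± 1.74, *Bach2* at 21.3 ± 1.35, *Id3* at 17.0 ± 2.41, *Id2* at 7.46 ± 0.489 and *Myb* at 5.47 ± 1.42 CPM per kilobase (SD, n = 4 each). There the ranges of *Bach2* and *Id3* overlapped and those of the other neighbours did not, with *Id2* above *Myb* in all 4 libraries.

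**Figure D4:**
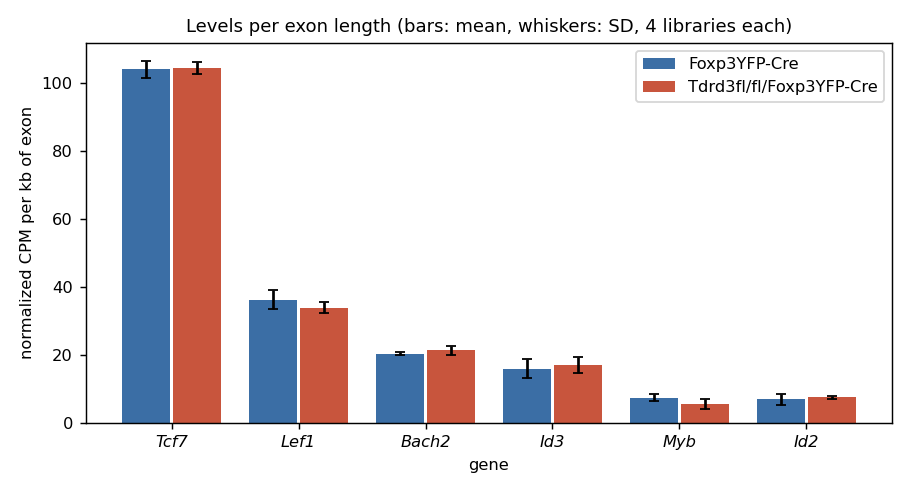
Mean normalized CPM per kilobase of exon for the 6 members in both genotypes, with bars from 0 and whiskers for the SD of 4 libraries. *Tcf7* is highest at 104 in both genotypes, and *Myb* and *Id2* are lowest, between 5.47 and 7.46.

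The exons of every member share bases with an unlisted gene on the opposite strand. The shared part was 5.47% of the exon length of *Tcf7* and 16.3% of that of *Lef1*, and for *Id2* 2 such genes shared 13.4% and 22.8%. The strand setting of the counting is not given in the sources used here, so reads of these partners cannot be told apart from those of the members. The estimated counts of *Tcf7*, *Lef1* and *Bach2* were not whole numbers in any of the 8 libraries, those of *Myb* were not whole in 2, and those of *Id2* and *Id3* were whole in all, to within 0.01.

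The genes most like each member were ranked by the root mean square of the log2 difference from the member's profile across the 8 libraries, each gene centred on its own mean. The profile of *Myb*, which spanned 1.02 log2 units, was most like that of *Prdm16* at 0.0807, *Tnfrsf11a* at 0.0949 and *Pde4a* at 0.101. The other profiles spanned less: 0.0793 for *Tcf7*, 0.309 for *Lef1*, 0.220 for *Bach2*, 0.633 for *Id2* and 0.631 for *Id3*. A smaller distance for a flatter member is therefore not a closer likeness. The most like *Tcf7* were *Puf60*, *Tubb5* and *Akna*, at 0.0208 to 0.0210, and the most like *Lef1* were *Sfi1*, *Trappc12* and *Sema4d*, at 0.0250 to 0.0292. *Bach2* was closest to *Orc1*, *Tm9sf1* and *Slc7a1*, at 0.0274 to 0.0287. *Id2* was closest to *Cep290*, *Rgs16* and *Med18*, at 0.0837 to 0.0954, and *Id3* to *Ccr6*, *Cdkn1a* and *Ccdc86*, at 0.0668 to 0.0816.

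Other genes of the naïve and effector programs were set beside the members. Of 13 genes of naïve T cells and quiescence, none passed the adjusted threshold, and the median log2 fold change was -0.04. Past the cutoff with a fold of 1.2 were 2 lower genes and 1 higher gene. That cutoff took 1.70% of all genes as lower and 1.78% as higher. The 2 lower genes were *Klf2* at -0.74 (adjusted p = 0.0617 in edgeR) and *S1pr1*, which encodes a receptor for egress from lymphoid tissue, at -0.27 (adjusted p = 0.0671). In these 2 genes all deleted libraries were below all controls, which occurred downward in 2.63% of all genes. The higher gene was *Gfi1*, which encodes a transcriptional repressor, at 0.31 (adjusted p = 0.478). *Klf2* was lower in all 33 alternatives, with an adjusted p below 0.05 in 10, and its log2 fold change was -0.35 without deleted libraries 1 and 4. *Foxo1*, which encodes a factor of the FOXO family, had a log2 fold change of 0.02. Of the 5 tested genes of stem-like and memory cells none passed at either cutoff, and their median was -0.09.

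Of 8 tested transcription factors of effector T cells, 2 were higher at the adjusted threshold and none was lower. Their median log2 fold change was 0.14. Over all tested genes 0.0619% were higher and 0.203% lower at that threshold, with a median of 0.00132. The list was chosen with earlier results of these data known, so its count and median are descriptions and not a test. *Bhlhe40*, whose product promotes cytokine expression, had a log2 fold change of 0.32 (adjusted p = 0.0148 in edgeR) and *Zbtb32*, which encodes a repressor that limits T cell activation, one of 0.40 (adjusted p = 0.0384). Without control 1, 2 or 3, or without deleted library 1 or 4, 0 of the 8 passed, and 1 passed without deleted library 3. Over the 33 alternatives both stayed positive with an unadjusted P below 0.05, *Bhlhe40* at 0.21 to 0.42 and *Zbtb32* at 0.22 to 0.53, and they passed the adjusted threshold in 17 and 15. *Foxp3*, the defining gene of regulatory T cells, was at 110 ± 12.5 and 88.4 ± 13.3 CPM (SD, n = 4 each), a log2 fold change of -0.31 with an adjusted p of 0.152. Its lowest values, 77.2 and 78.1 CPM, were in deleted libraries 1 and 4, without which the log2 fold change was -0.15. Over the 33 alternatives it ranged from -0.48 to -0.12, with an adjusted p below 0.05 in 7. *Foxp3* was the 1 of the 6 regulatory T cell markers past the cutoff with a fold of 1.2, and none passed the adjusted threshold. That cutoff took 1.70% of all genes as lower and 1.78% as higher. At an unadjusted P below 0.05, 4 of the 6 were lower, where 1052 of all 11317 tested genes passed in either direction. The median log2 fold change of the 6 markers was -0.13.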

How the data were processed

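RNA was measured in 8 libraries, 4 per genotype, grouped by their labels. The values are estimated counts per gene that the authors made with STAR 2.7.8a and the expectation-maximization quantification of Partek Flow on GRCm39, per the labels; they were deposited filtered (the lowest of the genes' highest counts is 10) and not normalized, and 43.0% are not whole. The annotation version and the strand setting are not given in the sources used here. The labels give 4 replicates per group and the methods state 3, and all 4 were used. The methods describe separate mice.

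The estimated counts were rounded, filtered by filterByExpr (minimum count 10) and fitted with edgeR 4.0.16 (TMM, quasi-likelihood F-test, genotype as the one term) in R 4.3.3, with P adjusted over 11317 genes. A standard error was taken as the log2 fold change over the square root of F, and intervals used the moderated degrees of freedom. CPM used TMM-scaled library sizes. 3 counts correspond to 0.188 to 0.225 CPM per library, for counting error only. The exact permutation test used log2(CPM + 0.5). Alternatives were DESeq2 1.42.0, limma 3.58.1 (voom with quality weights), sva 3.50.0, other filters and scalings, a replicate block and libraries left out, 33 in all. Exon lengths, start sites and sequences came from GENCODE M39 and the genome of the same build, where 11910 of 11911 identifiers were found. Named genes were the members, the genes of 13 lists (all, or those a result turned on) and the 3 most like each member. Some genes are not reported here and were left out of the lists. The members and lists were chosen with earlier results of these data known.

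The script was tested on simulated data for this comparison over 11317 genes: it recovered 52% of changes of 1.25-fold, 88% of 1.5-fold, 92% of 2-fold and 100% of 3-fold. It called 175 genes there, 9 of them unchanged, where the data gave 23 lower and 7 higher. With more genes called the adjusted threshold is easier to pass, so these rates may be too high for the data.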

Additional observations from a re-analysis of the deposited data

Results flagged for a closer look

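Of 188 groups of 4 libraries examined, 10 held a library whose gap to its nearest neighbour took most of the group's range, and chance gives such a gap in about 1 of 20 groups. None was a group of the 6 members. Among partners of the members, *Pygo2* was at 74.1 CPM in deleted library 4 (next 83.5), *Tcf4* at 8.71 in deleted library 1 (next 10.1) and *Mafk* at 41.2 in deleted library 2 (next 46.0). Among genes of naïve T cells, *S1pr1* was at 51.4 CPM in control 4 (next 57.5), *Ets1* at 889 in control 4 (next 941) and *Slfn2* at 82.1 in control 2 (next 105). *Cd3e* was at 160 CPM in deleted library 3 (next 142) and *Ikzf4* at 233 in the same library (next 217). *Cd8a* was at 11.3 CPM in control 3 (next 1.37). *Akna*, one of the genes most like *Tcf7*, was at 279 CPM in deleted library 1 (next 288).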

How the results depend on the processing

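Under all 33 alternatives *Myb* stayed negative, from -0.65 to -0.15 on the log2 scale. Its unadjusted P was below 0.05 in 30, and its adjusted p, from 0.00239 to 0.9998, passed 0.05 in 6. *Lef1* ranged from -0.16 to -0.023 and *Bach2* from 0.00087 to 0.11, with no adjusted call. DESeq2 called 49 genes lower, 32 higher and 1 of the naïve list, and gave *Myb* -0.44 with an adjusted p of 0.537. Voom gave *Myb* -0.55 (adjusted p = 0.0416), *Tcf7* -0.00061, 66 genes lower, 29 higher, 1 member and 2 of the naïve list. The replicate block gave *Myb* -0.46 (adjusted p = 0.0356), 49 lower, 38 higher, 1 member and 1 of the naïve list. Deviations of same-numbered libraries from their group means correlated at -0.0458 to 0.0691. The labels do not say whether a shared number marks a pair or a batch, and these correlations cannot settle it. With 1 surrogate variable *Myb* was -0.16 (adjusted p = 0.854), *Bach2* 0.0017, *Id2* -0.047 and *Id3* -0.12, with 6 genes lower, 2 higher and 0 of the effector list. Without deleted libraries 1 and 4 *Id3* was -0.072, with 2 genes lower and 1 higher at the adjusted threshold, 119 and 116 at the cutoff with a fold of 1.2, and 0 of the effector list. Leaving out single libraries, or 1 of each genotype, gave *Myb* -0.65 to -0.25, *Tcf7* -0.018 to 0.026, *Id2* -0.037 to 0.25 and *Id3* -0.082 to 0.27. It gave 2 to 142 genes lower and 1 to 101 higher against 23 and 7, 130 to 326 and 141 to 302 at the cutoff against 192 and 201, 0 to 1 members, 0 to 3 of the naïve list and 0 to 2 of the effector list. Without deleted library 2 *Myb* was -0.57 (adjusted p = 0.0190). The cause of these changes was not tested. In simulated data of this size, with genes drawn independently, the smallest fold tried was recovered in 52% of genes. More genes were called there than in the data, so that share may be too high here. The differences of *Lef1* and *Bach2* were smaller than the smallest fold tried.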
